A study of Mus musculus with 4 samples.

Results

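Hyaluronan synthesis, turnover and binding were examined through 7 genes of the mouse hindlimb bud: the synthases Has1, Has2 and Has3, the hyaluronidases Hyal1 and Hyal2, the hyaluronan-binding proteoglycan Vcan, and the receptor Cd44. They were chosen by symbol among the 25239 gene symbols of the deposited count table, and all 7 were found there. The list was drawn up by function, with earlier results of these data known. RNA was sequenced from hindlimb cells of FVB mouse embryos at embryonic day 11.5. Anterior cells positive for the red fluorescent protein mCherry were set against mCherry-negative cells of the central domain, with 2 libraries of each population, after dissection, dissociation and fluorescent sorting. The embryos of both populations were labelled wild-type in genotype and carried the same reporter at the H11 locus, H11 hsp68-hZRS(404G>A)-mCherry. In it, a human copy of the ZRS, the limb enhancer of Shh, with the 404G>A base change is joined to the hsp68 promoter and mCherry. The mCherry signal was thus the sorting criterion as well as the mark of enhancer activity, and position and reporter state cannot be told apart. The number of embryos behind each library is not given in the sources used here. The p-values thus rest on the spread between these libraries, moderated across genes, and that spread may be technical.

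Hyaluronan is a long, unsulfated sugar polymer that synthases in the cell membrane build from UDP-glucuronic acid and UDP-N-acetylglucosamine and push out of the cell. In the limb bud it keeps the mesenchyme hydrated and loosely packed, and Has2 is the synthase known to be needed there for normal limb growth. Versican, the product of Vcan, binds hyaluronan through its N-terminal domain, carries chondroitin sulfate chains, and is known from the early limb mesenchyme and from the condensations that precede cartilage.

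Has2 was 1.90-fold higher in anterior cells and Vcan was 2.31-fold higher in central cells. These were the members called by edgeR's quasi-likelihood test at an adjusted p-value under 0.05 (Benjamini-Hochberg, BH, over all tested genes), 1 in each direction. Of the other members, Hyal1 was lower in both anterior libraries than in both central ones without passing the threshold, and Has1, Has3, Hyal2 and Cd44 had overlapping values. All 7 genes passed the filter on low counts. The share of members called was 28.6%, against a background of 22.9% of the 14610 genes tested (10.7% higher and 12.3% lower in anterior cells). Anterior and central values did not overlap for 3 of the 7 members (42.9%), against 63.5% of all tested genes. The members' share of calls was therefore near that of genes in general.

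**Figure D1:**
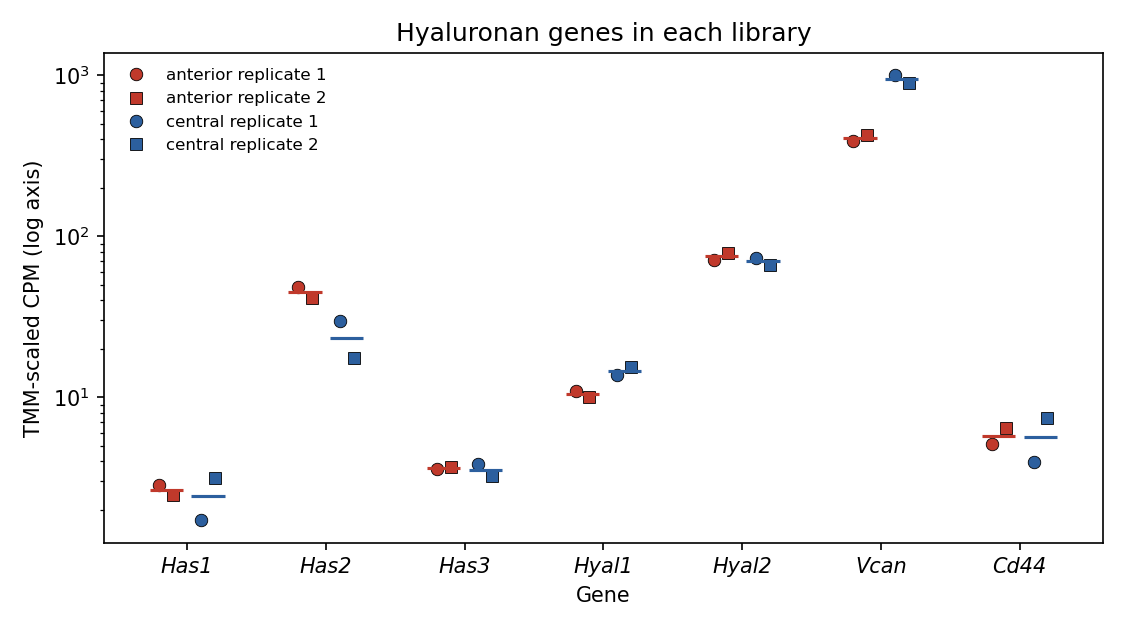
CPM (read counts per 1 M of the TMM-scaled library size, log axis) of the 7 genes in each library. Circles and squares are replicates 1 and 2, red is anterior, blue is central, and bars are group means. Both red points lie above both blue points for Has2, and both lie below for Hyal1 and Vcan.

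The libraries held 30080925 to 33257383 counts in all, so that 3 counts, the lowest number treated as a signal, corresponded to 0.0899 to 0.102 CPM. The limb mesenchyme markers Prrx1, Tbx4 and Pitx1 were abundant in every library and none of them was called, while Prrx2 and Twist1 of the same list were called higher and Pdgfra lower in anterior cells. Other cell types differed between the populations. The summed level of 10 erythroid markers was 3294 and 8400 CPM in anterior and 5.98 and 9.48 CPM in central libraries, with 8 of 8 tested genes called higher and Hba-a1 and Hba-a2 at 0 everywhere. White cell markers were called higher for 6 of 9 tested genes (20.8 to 26.2 CPM anterior, 8.22 to 8.44 CPM central, summed over the list). Markers of chondrogenic cells (385 to 517 against 1347 to 1758 CPM), myogenic cells (7.77 to 15.2 against 146 to 180 CPM), ectoderm and ridge (13.5 to 14.3 against 61.9 to 209 CPM), endothelium (13.6 to 20.3 against 39.5 to 49.7 CPM) and Schwann precursors (5.66 to 6.42 against 20.0 to 25.6 CPM) were lower in anterior cells. Called lower were 8 of 9, 7 of 7, 9 of 12, 6 of 10 and 2 of 3 tested genes of these lists. Pax7, Myog, Matn1, Sox10 and Foxd3 were at 0 in both anterior libraries. Over all tested genes 12.3% were called lower and 10.7% higher. Some genes called lower, such as Myog and Pax7, passed the filter on low counts through the central libraries alone. Some erythroid genes passed it through the anterior libraries alone. The direction of such calls was thus fixed by the filter. Of 8 genes linked to stress from dissociation, 1 was called higher (Atf3) and 2 lower (Jun and Egr1), and their summed level was 284 and 244 CPM in anterior against 532 and 362 CPM in central libraries. The part of these genes in the differences of Has2 and Vcan was not tested. In such bulk samples fewer cells of a type and less RNA per cell cannot be told apart.

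Of the 3 synthases, Has2 (chromosome 15, 56665627 to 56694539, minus strand, GRCm38) accounted for most of the transcripts. Per kilobase of exon it made up 90.5% and 89.6% of the summed synthase level in anterior and 87.6% and 77.4% in central replicates 1 and 2. The table gave Has2 1609 and 1210 counts for anterior and 910 and 565 for central replicates 1 and 2, or 48.2 and 41.2 CPM against 29.6 and 17.5 CPM. The anterior libraries were both higher than the central ones, and the lower anterior value was 1.40 times the higher central one. The central replicates differed from each other by 1.69-fold, more than the anterior ones (1.17-fold). The means were 44.7 ± 4.95 CPM in anterior and 23.5 ± 8.55 CPM in central cells (SD over 2 libraries each), which gave a log2 fold change of 0.93 ± 0.21 (SE, 95% interval 0.46 to 1.40) with an edgeR adjusted p-value of 0.0131. Its absolute log2 fold change ranked 2123rd of the 14610 tested genes. Without central replicate 2, the library with the lowest Has2, the log2 fold change was 0.60, and without central replicate 1 it was 1.36. In the alternatives that kept all 4 libraries, the adjusted p-value ranged from 7.25e-05 (edgeR, genes of at least 1 count kept) to 0.0209 (edgeR, library size alone). With the erythroid genes and Rn45s removed from the fit, which leaves the Has2 counts as they were, the log2 fold change was 0.93. The part of other cell types, erythroid cells included, in the difference was not tested. The opposite-strand gene Has2os overlaps 4.30% of the Has2 exon bases and had at most 7 counts in any library.

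Has1 and Has3, the other hyaluronan synthases, were expressed at low levels. Has1 (chromosome 17, 17843323 to 17855205, minus strand) had 95 and 73 counts in anterior and 53 and 102 in central libraries, or 2.85 and 2.49 against 1.72 and 3.15 CPM. Its central values lay on either side of the anterior ones. The log2 fold change was 0.13 ± 0.38 (SE, 95% interval -0.72 to 0.98, edgeR adjusted p-value 0.842). Has3 (chromosome 8, 106870242 to 106884566, plus strand) had 119 and 108 counts against 119 and 105, or 3.57 and 3.68 against 3.86 and 3.24 CPM. The anterior values of Has3 fell within the range of the central ones, at a log2 fold change of 0.029 ± 0.27 (SE, 95% interval -0.59 to 0.65, edgeR adjusted p-value 0.952). A change as large as that of Vcan lies outside both intervals, whereas one as large as that of Hyal1 (-0.47) lies within both. The change of Has2 (0.93) lies within the interval of Has1 and outside that of Has3. The opposite-strand gene Chtf8 overlaps 5.52% of the Has3 exon bases and had 8776 to 9241 counts per library, so a share of the Has3 counts is uncertain if the counting ignored strand.

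Hyal1 and Hyal2 encode neighbouring hyaluronidases on chromosome 9, where Hyal2 is anchored at the cell surface and Hyal1 acts in lysosomes. Hyal2 (107567945 to 107572779, plus strand) was the more abundant, at 71.7 and 78.3 CPM in anterior and 73.4 and 66.7 CPM in central libraries. These values overlapped, with a log2 fold change of 0.098 ± 0.086 (SE, 95% interval -0.097 to 0.29, edgeR adjusted p-value 0.465), the narrowest interval among the members that were not called. Hyal1 (107576927 to 107581710, plus strand) had 363 and 295 counts in anterior and 423 and 496 in central libraries. That gave 10.9 and 10.1 CPM against 13.7 and 15.3 CPM, with both anterior libraries below both central ones. The log2 fold change of Hyal1 was -0.47 ± 0.15 (SE, 95% interval -0.82 to -0.12, not adjusted for the number of genes), and the edgeR adjusted p-value of 0.0565 missed the threshold. Upper-quartile scaling brought it to 0.0457, and the other 13 alternatives left it between 0.0505 and 0.241. Hyal1 shares 50.8% of its exon bases with Naa80 on the same strand, which had 460 and 399 counts in anterior and 535 and 513 in central libraries, and how reads in the shared exons were assigned is not given in the sources used here.

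Vcan (chromosome 13, 89655312 to 89742509, minus strand) was the most abundant member and had the largest fold change of the 7. Its counts were 13018 and 12552 for the anterior replicates and 30771 and 28942 for the central ones, or 390 and 428 CPM against 999 and 894 CPM. The populations were well apart, since the lower central value was 2.09 times the higher anterior one, while replicates differed by at most 1.12-fold. Means were 409 ± 26.6 CPM in anterior and 947 ± 74.3 CPM in central cells (SD over 2 libraries each), which gave a log2 fold change of -1.21 ± 0.079 (SE, 95% interval -1.39 to -1.03) with an edgeR adjusted p-value of 1.70e-05. Over the 14 alternatives the log2 fold change stayed between -1.29 and -1.13. The chondrogenic, myogenic, ectodermal, endothelial and Schwann precursor markers given above were lower in the same libraries as Vcan, and their part in the difference was not tested. The counts are per gene and do not separate the splice forms of Vcan, which differ in the stretches that carry chondroitin sulfate.

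The start region of Vcan is shown because it is the called member with an entry in the RefSeq promoter table, which held 5 of the 7 genes (Has1, Hyal1, Hyal2, Vcan and Cd44, without Has2 and Has3). The 300 bases run from 250 before to 50 after the annotated start at chr13:89742463-89742762 (GRCm38.p6, minus strand), written 5′ to 3′ on the gene's strand, and capitals mark every match on either strand to GGGCGG (the GC box) or CCAAT (the CCAAT box):
Vcan: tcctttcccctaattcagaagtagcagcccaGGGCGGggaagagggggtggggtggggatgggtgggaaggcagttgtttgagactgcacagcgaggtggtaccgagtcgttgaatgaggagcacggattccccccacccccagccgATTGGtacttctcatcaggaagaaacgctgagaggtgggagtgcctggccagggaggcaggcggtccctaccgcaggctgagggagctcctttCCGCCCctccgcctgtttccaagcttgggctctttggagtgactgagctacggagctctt
The window held 2 matches to GGGCGG and 1 to CCAAT, with no overlap between them, and none to TATAAA or to ATCAAAG, a TCF/LEF motif. Of the 32851 promoter windows of this length, 35.7% held GGGCGG, 37.4% held CCAAT, 13.6% held TATAAA and 3.73% held ATCAAAG on either strand. Of the members that were not called, Hyal1 had 2 matches to GGGCGG and Hyal2 and Cd44 had 1 each. Hyal1 and Has1 had 1 match to CCAAT each. These matches describe the letters only.

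Cd44 (chromosome 2, 102811141 to 102901665, minus strand), the main cell-surface receptor for hyaluronan, was expressed at a low level, with 171 and 188 counts in anterior and 122 and 240 in central libraries. This gave 5.13 and 6.41 CPM against 3.96 and 7.41 CPM, so that the anterior values fell between the central ones. The central replicates differed by 1.87-fold, the widest replicate gap of the 7 genes. Central replicate 2, the higher in Cd44, also had the higher summed level of ectoderm and ridge markers (209 against 61.9 CPM in central replicate 1), and the part of that difference in the Cd44 values was not tested. The log2 fold change of 0.017 ± 0.31 (SE, 95% interval -0.69 to 0.73) had an edgeR adjusted p-value of 0.975. Without central replicate 1 it was -0.36 and without central replicate 2 it was 0.54, neither of them called.

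**Figure D2:**
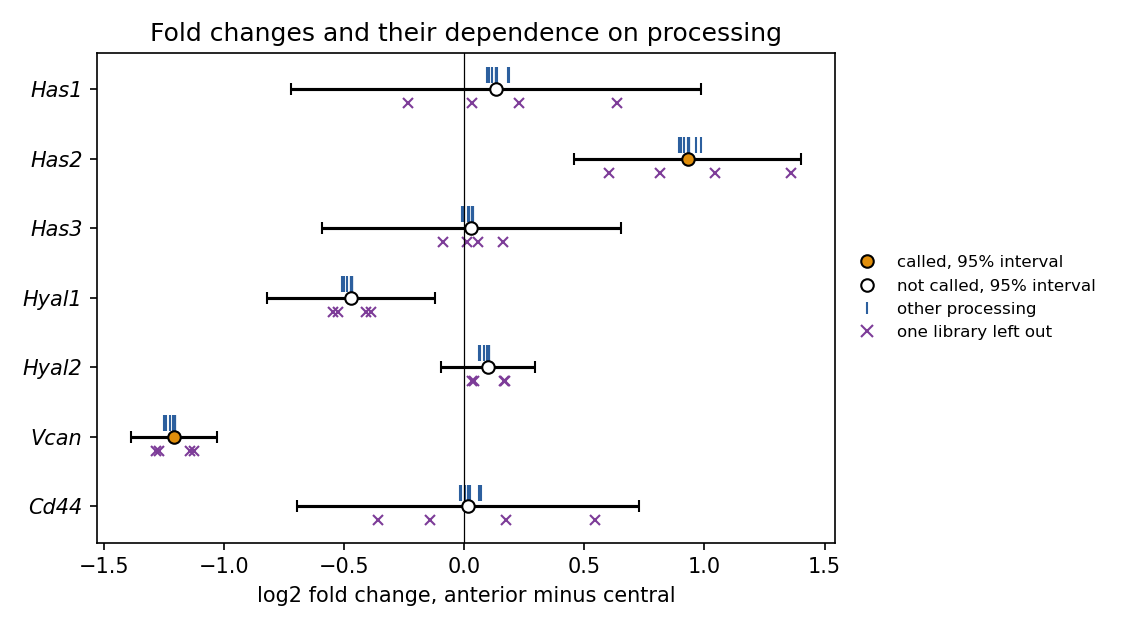
Log2 fold change, anterior minus central, of each gene (circle, filled where called) with its 95% interval, the values under other processing (blue ticks) and those with one library left out (purple crosses). Has2 and Vcan stay on their side of 0 throughout, with the crosses of Has2 spread from 0.60 to 1.36. Has1, Has3 and Cd44 have crosses on both sides.

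Levels of different genes were compared per kilobase of exon (CPM per kb, from the union of GENCODE M21 exons). In central cells Vcan was highest, at 65.5 ± 5.14 CPM per kb, followed by Hyal2 at 21.3 ± 1.43, Has2 at 5.55 ± 2.02, Hyal1 at 3.85 ± 0.30, Cd44 at 0.84 ± 0.36, Has3 at 0.56 ± 0.069 and Has1 at 0.54 ± 0.22 (SD, n = 2 each). In anterior cells Vcan (28.3 ± 1.84) and Hyal2 (22.8 ± 1.43) lay closer together, and Has2 was at 10.6 ± 1.17. Hyal1 followed at 2.77 ± 0.15, then Cd44 at 0.85 ± 0.13, Has1 at 0.59 ± 0.056 and Has3 at 0.57 ± 0.013 (SD, n = 2 each). Both populations thus had the same first 5 genes in the same order. The libraries of neighbours in this order did not overlap, except that Has1 and Has3 overlapped in both populations, and that Cd44, Has1 and Has3 overlapped in the central one. The level of Hyal1 was taken over all its exon bases, of which 50.8% are shared with Naa80. Its level and its place next to Has2 thus depend on how shared reads were assigned, which is not known. The opposite changes of Vcan and Has2 gave 8.09 and 10.4 Vcan counts per Has2 count in anterior and 33.8 and 51.2 in central libraries.

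**Figure D3:**
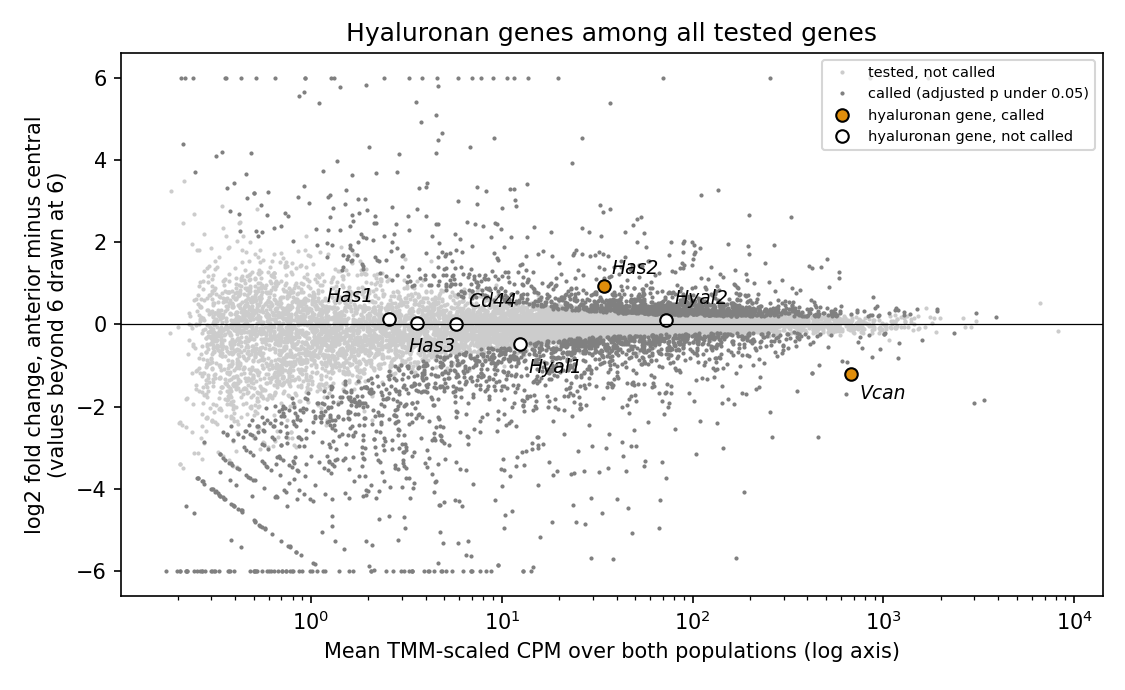
Log2 fold change, anterior minus central, against mean CPM (log axis) for the 14610 tested genes, with the 7 hyaluronan genes as circles, filled where called. Vcan lies at the abundant end, at the 99.0 percentile of mean CPM, while Has1, Has3 and Cd44 lie between the 20.9 and 28.6 percentiles.

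The wider pathway was followed through 6 further lists with 78 symbols, of which 77 were in the table and 61 were tested. Called higher in anterior cells were 12 of the 61 and called lower were 19, or 50.8% in all against the 22.9% of all tested genes. That background, 10.7% higher and 12.3% lower, is the one to set beside the counts of each list below. The median log2 fold change was -0.16, against -0.0087 over all tested genes. The lists hold genes of several cell types that differ between the populations. They were drawn up with earlier results of these data known, so their share of calls is a description only. Some called genes, such as Lyve1 and Esrp1, passed the filter on low counts only through the population where they are high.

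Enzymes that make the UDP-sugar substrates moved in both directions, with 2 of 8 called higher and 2 lower (median log2 fold change -0.094). Gfpt1 and Gfpt2, which catalyse the first step of the hexosamine pathway, were lower in anterior cells by edgeR's quasi-likelihood test, at -0.37 ± 0.064 and -0.49 ± 0.087 (log2 fold change ± SE) with adjusted p-values of 0.00419 and 0.00477. Gfpt1 was also the most abundant gene of this list, at 107 CPM in anterior and 138 CPM in central cells. Gnpnat1, which acetylates glucosamine phosphate further along the same pathway, was higher (45.9 against 30.4 CPM, log2 fold change 0.60 with an SE of 0.087, edgeR BH-adjusted p 0.00172). Uap1l1, a paralog of the enzyme that forms UDP-N-acetylglucosamine, was at 7.08 against 3.07 CPM (log2 fold change 1.21, edgeR BH-adjusted p 0.00746). Ugdh, which makes UDP-glucuronic acid, was not called, at 88.3 against 96.3 CPM (log2 fold change -0.12, edgeR BH-adjusted p 0.341).

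Among the other turnover genes 1 of 6 tested was called higher and 1 lower (median log2 fold change -0.39). The median rests on these 6 genes alone, and some of those below 0 were not called and had as few as 8 counts in a library. Gusb, the lysosomal beta-glucuronidase, was at 58.1 against 43.7 CPM (log2 fold change 0.41, edgeR BH-adjusted p 0.00683). Without anterior replicate 2 the number called in this list was 1. Cemip2, a cell-surface protein that degrades hyaluronan, was the most abundant of the list and was not called, at 160 against 167 CPM (edgeR adjusted p-value 0.599). Hyal4, Hyal5, Hyal6 and Spam1 were at 0 in every library.

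Of the other hyaluronan-binding proteins 12 of 22 were tested, with 3 called higher and 4 lower (median log2 fold change -0.53). Layn, a membrane receptor for hyaluronan, had 24 and 17 counts in anterior and 122 and 100 in central libraries (log2 fold change -2.43 with an SE of 0.39, edgeR BH-adjusted p 0.00267). Tnfaip6, which transfers protein chains onto hyaluronan, fell from 28.7 to 17.9 CPM (log2 fold change -0.69, edgeR BH-adjusted p 0.00238), and Itih5 from 7.75 to 4.06 CPM (log2 fold change -0.93, edgeR BH-adjusted p 0.0430). The intracellular protein Habp4, also called lower, completes the 4. Hmmr, which is also a mitotic spindle protein, was the most abundant of this list and rose in anterior cells, where it measured 102 against 72.2 CPM (log2 fold change 0.50, edgeR BH-adjusted p 0.00284).

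The other genes called higher in that list were the hyaluronan receptor genes Stab1 and Lyve1, of which Lyve1 was named after its values were seen. Stab1 was at 12.7 against 5.13 CPM (log2 fold change 1.30, edgeR BH-adjusted p 0.0151). Lyve1 had 16 and 14 counts in anterior and 0 in both central libraries, at least 5.03-fold higher against a floor of 3 counts per central library. Lyve1 passed the filter on low counts through the anterior libraries alone, so the direction of its call was fixed by that filter. Stab1 and Lyve1 are both known from macrophages and from endothelium. The white cell markers were higher and the endothelial markers lower in the same anterior libraries. Their part in these values was not tested. Hapln1, the link protein that locks versican onto hyaluronan, was not called (184 and 88 counts against 176 and 409, log2 fold change -1.10 with an SE of 0.40, edgeR BH-adjusted p 0.0826).

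**Figure D4:**
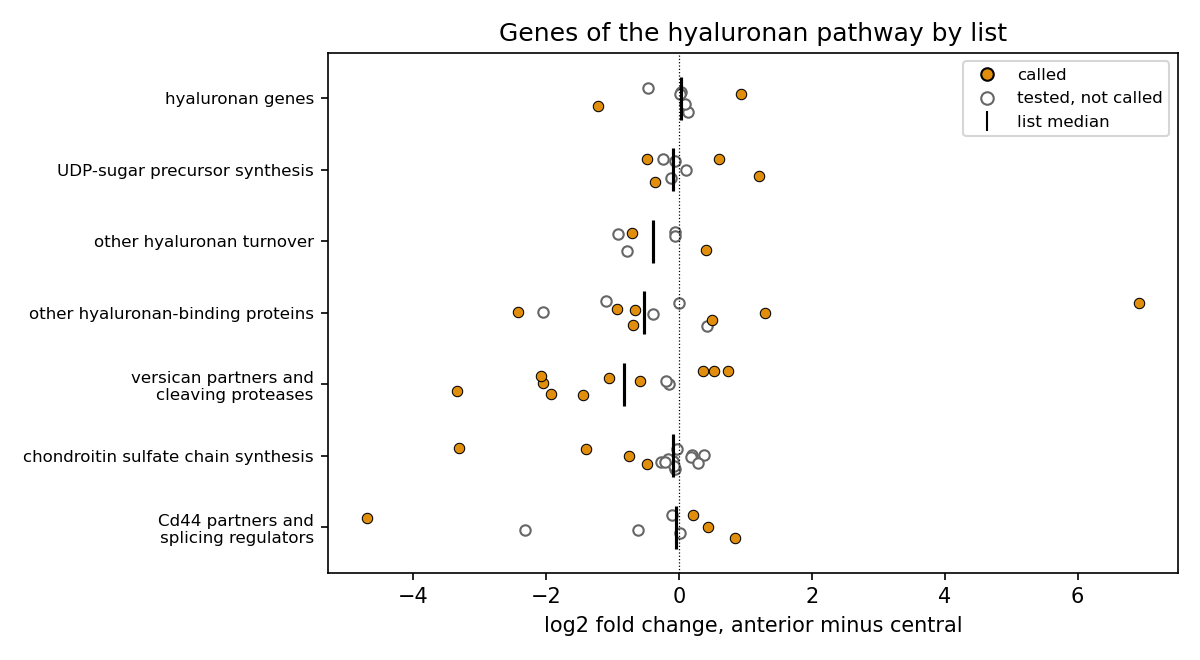
Log2 fold change, anterior minus central, of each tested gene in the member list and the 6 further lists, filled where called, with black bars at the list medians. The versican list has the most called genes, 10 of 12, on both sides of 0, and the point near 7 is Lyve1, which was at 0 in the central libraries and whose fitted value is no bound.

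Versican partners and the proteases that can cleave it were called for 10 of 12 tested genes, 3 higher and 7 lower in anterior cells (median log2 fold change -0.82). Leaving out 1 library at a time gave 8 to 11. Of the 6 proteases of the ADAMTS family, which cut versican within its chain-bearing region, Adamts15, Adamts9, Adamts20 and Adamts5 were lower, as Vcan was. Adamts15 had the largest change, with 126 and 74 counts in anterior and 1051 and 977 in central libraries (log2 fold change -3.34 with an SE of 0.19, edgeR BH-adjusted p 9.13e-06). Adamts9 was at 7.63 against 31.7 CPM and Adamts20 at 4.85 against 18.4 CPM, with log2 fold changes of -2.05 and -1.92 (edgeR adjusted p-values 8.49e-05 and 0.000478). The remaining proteases, Adamts1 and Adamts4, were called higher, and Adamts1 was at 101 against 60.5 CPM (log2 fold change 0.74 with an SE of 0.079, edgeR BH-adjusted p 0.00031). Among matrix partners, Tnc, the tenascin that binds versican, was at 5.52 against 23.5 CPM (log2 fold change -2.08 with an SE of 0.37, edgeR BH-adjusted p 0.00450). Fn1, fibronectin, was the most abundant gene of the list and fell from 1150.2 to 765 CPM (log2 fold change -0.59, edgeR BH-adjusted p 0.000877). The chondrogenic and other markers given above were lower in the same anterior libraries, and their part in these falls was not tested.

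Enzymes that build the chondroitin sulfate chains carried by versican were called lower for 4 of 15 genes, and none was called higher (median log2 fold change -0.090). Over all tested genes 22.9% were called in either direction, 10.7% higher and 12.3% lower. The share called in either direction was near that of genes in general, while the share called lower, 4 of 15, was above its background. Of these 4, 1 had 4 counts in each anterior library and passed the filter on low counts through the central libraries alone. At an unadjusted p-value under 0.05, 1 of the 15 was higher in the edgeR fit, and after adjustment DESeq2 and limma-voom also called 0 higher. Those called included the sulfotransferases Chst11, at 7.98 against 21.1 CPM (log2 fold change -1.40 with an SE of 0.16, edgeR BH-adjusted p 0.000404), and Chst15, at 11.2 against 18.9 CPM (log2 fold change -0.75, edgeR BH-adjusted p 0.00970). The chain-extending Chpf2 fell by 0.48 on the log2 scale (edgeR BH-adjusted p 0.0139). Chsy1, the chondroitin synthase gene with the highest level in the list, was at 137 against 121 CPM and was not called (adjusted p by edgeR 0.173). Without anterior replicate 2 the number called was 2, and without central replicate 1 it was 5, of which 2 were higher in anterior cells.

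Of the Cd44 partners and splicing regulators 3 of 8 tested genes were called higher and 1 lower (median log2 fold change -0.042). The genes called higher, Ezr, Rdx and Msn, encode the related proteins that tie the Cd44 tail to the actin cortex. Msn was at 175 against 98.1 CPM (log2 fold change 0.84 with an SE of 0.069, edgeR BH-adjusted p 6.72e-05), Ezr at 41.4 against 30.6 CPM and Rdx, the most abundant of the list, at 399.8 against 346 CPM, with log2 fold changes of 0.44 and 0.21 (edgeR adjusted p-values 0.0205 and 0.0372). Without anterior replicate 1 only 2 genes of the list were called. Esrp1, an epithelial splicing factor that acts on Cd44 transcripts, had 6 and 8 counts in anterior and 49 and 330 in central libraries (log2 fold change -4.69 with an SE of 0.89, edgeR BH-adjusted p 0.00607). The higher of its central values was in replicate 2, where the summed ectoderm and ridge markers were also higher.

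Genes with profiles most like those of Has2, Vcan and Cd44 over the 4 libraries were found as the smallest root mean square difference of centred log2 CPM among 10604 genes with a mean of at least 5 CPM. For Has2 these were Jazf1 (0.0424), B3galt1 (0.0638) and Cacna1d (0.103), of which Jazf1 was not called. For Vcan they were Cadm4 (0.0401), Fbxl16 (0.0470) and Dock11 (0.0564), all called lower in anterior cells. For Cd44 they were Zfat (0.106), Xist (0.116) and Card10 (0.118), none of them called, and these share the lower replicate 1 of both populations. Distances over 4 libraries are a description only.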

How the data were processed

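RNA sequencing counts of 2 anterior mCherry-positive and 2 central mCherry-negative hindlimb libraries were analysed, with group and replicate number taken from the sample titles. The authors deposited whole-number read counts per gene symbol, not normalized, and no per-sample column was left unmatched. The submitters' processing notes list STAR 2.7.9a, HTSeq, DESeq2 3.16 and the build mm10, while the annotation, strand setting and filters are not given in the sources used here. Between 72.8% and 75.6% of the counts from 1 to 10 were even, as when the mates of a read pair are counted separately, so halved counts were also tried.

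From these counts, genes were kept by filterByExpr, TMM scaling was applied, and the populations were compared in edgeR 4.0.16 (R 4.3.3) with the quasi-likelihood F test, Benjamini-Hochberg (BH) adjustment over all 14610 tested genes and a threshold of 0.05, leaving 2 residual degrees of freedom. The test moderates the spread of each gene toward that of other genes, with 6.63 prior degrees of freedom. The standard error is the absolute log2 fold change divided by the square root of F. The 95% intervals use it with the residual and prior degrees of freedom together, without adjustment for the number of genes. Folds are ratios of mean CPM. Alternatives were other scalings, DESeq2 1.42.0, limma-voom 3.58.1, other filters, a replicate block, halved counts, removal of erythroid genes and Rn45s, and leaving out each library. The procedure was tested on simulated counts. Positions and exon lengths come from GENCODE M21 (GRCm38).

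The members and lists were chosen with earlier results of these data known. Named were all members, up to 4 called genes per list with the largest absolute log2 fold change (mean CPM of at least 1), the most abundant gene of each list, and the 3 genes most like Has2, Vcan and Cd44 in profile (log2 of CPM plus 0.01). Ugdh, Hapln1, Habp4, Lyve1, Adamts1, Adamts4 and Adamts5, and listed genes at 0, were named after their values were seen. A gene that met the naming rule is not reported here. Intervals and floors cover counting error or the spread between these libraries only.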

Additional observations from a re-analysis of the deposited data

How the results depend on the processing

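Has2 and Vcan kept their direction and were called under all 14 alternatives, and Hyal2 kept its direction and was not called in any. Hyal1 was called only with upper-quartile factors (log2 fold change -0.51). Members near 0 changed sign without being called: Has3 became -0.0028 with library size alone and -0.0094 with upper-quartile factors, and Cd44 became -0.014 and -0.019 with the same scalings. With one library left out at a time, log2 fold changes ranged from -0.24 to 0.63 for Has1, from -0.090 to 0.16 for Has3 and from -0.36 to 0.54 for Cd44. In these fits the lone library of a group is assumed to vary like the others. They gave 2009 (without anterior replicate 2) to 3697 called genes, against 3351 with all libraries. The number called ranged from 1 to 2 for the turnover list, from 2 to 5 for chondroitin sulfate synthesis and from 2 to 5 for the Cd44 partners. With the length of the longest transcript in place of all exons, the mean level over the 4 libraries moved from 3.31 to 4.15 CPM per kb for Hyal1, from 22.0 to 24.4 for Hyal2 and from 46.9 to 54.6 for Vcan, and the order of the 7 genes was the same. The cause of these changes was not tested.

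Replicate numbers 1 and 2 occur in both populations, and nothing in the labels says that they mark the same embryos. Across genes, which are not independent replicates, the replicate differences of the populations correlated at 0.0372 (Pearson). With the replicate block, 3586 genes were called, and the calls of all 7 members were the same, with log2 fold changes of 0.97 for Has2, -0.47 for Hyal1 and -1.21 for Vcan. Has1, Has3 and Cd44, at 53 to 240 counts per library, had the widest intervals of the members, and the parts of depth and of replicate spread in that width were not tested.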
